A study of Mus musculus with 2 samples.

Results

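The genes described are 10 transcription factors of myeloid blood cells: Spi1, the C/EBP genes Cebpa, Cebpb, Cebpd, Cebpe and Cebpg, the interferon regulatory factors Irf8, Irf4 and Irf5, and Gfi1. They were taken by name, out of 20655 named genes on the array, through the transcript accession of each probe. Each had 1 probe, printed as 1 spot, which makes 10 of 55664 probes, and all 10 probes were well above background on both arrays. The cells were LSK cells, which lack lineage markers, carry Sca-1 and c-Kit, and hold the blood stem cells and multipotent progenitors of the mouse. One group came from bone marrow of wild-type C57BL/6 mice at 8 weeks, and the other from wild-type fetal liver at E14.5, with no strain named in the labels used here. No cells of either group were transplanted, and each group was 1 single-colour Agilent array, with the number of animals per array not given in the sources used here. Tissue, age, slide and possibly strain differ together and cannot be told apart.

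Myeloid output from multipotent progenitors depends on a small set of DNA-binding proteins. PU.1, the product of Spi1, is an ETS factor needed for both myeloid and lymphoid cells. C/EBP proteins are basic leucine zipper factors that bind DNA as dimers. C/EBP alpha opens the granulocyte-monocyte path, C/EBP epsilon runs late granulocyte maturation, and C/EBP beta supports granulocyte production under stress. IRF8 directs monocytes and dendritic cells, and binds many sites only together with a partner such as PU.1. GFI1 is a zinc finger repressor that favours granulocytes and restrains stem cell division.

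Of the 10 genes, Gfi1 stood higher in fetal liver LSK cells, by 2.54-fold, and Cebpb and Cebpa stood higher in bone marrow LSK cells, by 2.68-fold and 2.02-fold. Irf8 followed at 1.74-fold higher in bone marrow. The other 6 genes, Spi1 among them, differed by less than 1.5-fold. At least 2-fold higher in fetal liver was therefore 1 of 10 genes, against 6.72% of the 13372 named genes above background on at least 1 array, and 2 of 10 were higher in bone marrow, against 8.12%. At a size of 1.5-fold the counts were 1 (17.6% of all genes) and 3 (14.9%). These shares rest on 1 and 2 genes. With 1 array per group no difference has a replicate check, so no test was made.

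**Figure D1:**
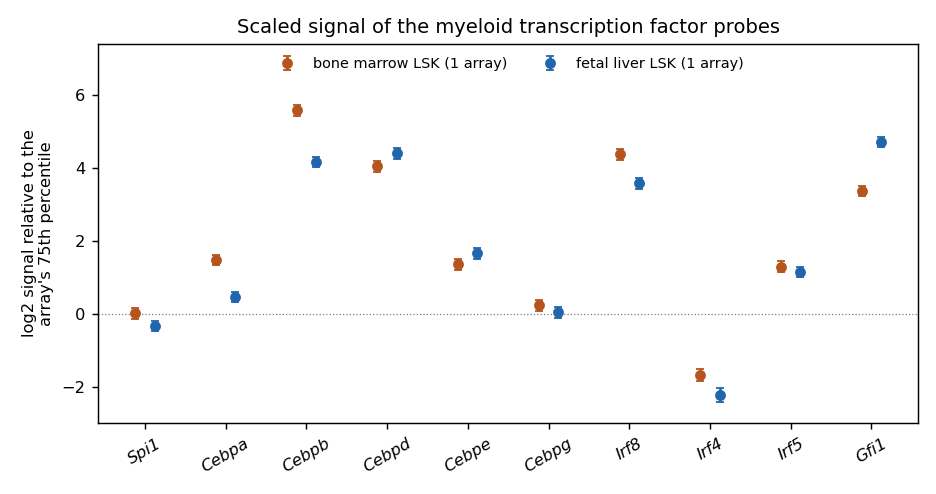
Scaled log2 signal of the 10 probes on the bone marrow and the fetal liver array, with bars for the technical error of the image software. The fetal liver point lies above the bone marrow point for Gfi1, Cebpd and Cebpe, and below it for the other 7 genes, and heights of different probes are not comparable.

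Signals are linear intensities with the error that the image software gives. A difference is the fetal liver value minus the bone marrow value on the log2 scale, after each array was divided by its own 75th percentile (a signal of 179 in bone marrow, 134 in fetal liver). The error of such a difference is technical only and was about 0.20 for these genes, most of it a fixed share of the signal. For comparison, 235 probes printed as 10 spots each gave an SD of 0.16 for a log2 difference between single spots. The median difference over all 13372 genes was 0.11, with quartiles of -0.29 and 0.44. Scaling by 8 spike-in controls in place of the percentile lowered every difference between measured signals by 0.34 and put the median over all genes at -0.23. A positive difference under 0.34 therefore turns negative under that scaling. On the bone marrow array 47.4% of probes were well above background, on the other 46.4%.

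The start regions of Cebpb, Cebpa, Irf8 and Gfi1 are shown because these were the genes past 1.5-fold. They are the 250 bases before the outermost annotated start, from RefSeq on build GRCm38.p6, read 5′ to 3′. Capitals mark matches to the motifs searched.
Cebpb, chr2:167688665-167688914, plus strand: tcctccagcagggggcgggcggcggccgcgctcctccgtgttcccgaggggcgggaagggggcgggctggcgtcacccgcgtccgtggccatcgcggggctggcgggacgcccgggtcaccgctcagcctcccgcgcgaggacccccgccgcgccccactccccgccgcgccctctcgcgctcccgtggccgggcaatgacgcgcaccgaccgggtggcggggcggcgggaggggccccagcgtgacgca
Cebpa, chr7:35119043-35119292, plus strand: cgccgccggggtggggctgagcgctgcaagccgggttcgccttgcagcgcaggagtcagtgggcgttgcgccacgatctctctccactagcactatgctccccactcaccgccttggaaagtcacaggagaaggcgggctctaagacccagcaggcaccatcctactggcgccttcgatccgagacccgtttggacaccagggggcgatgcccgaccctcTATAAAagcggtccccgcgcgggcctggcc
Irf8, chr8:120736108-120736357, plus strand: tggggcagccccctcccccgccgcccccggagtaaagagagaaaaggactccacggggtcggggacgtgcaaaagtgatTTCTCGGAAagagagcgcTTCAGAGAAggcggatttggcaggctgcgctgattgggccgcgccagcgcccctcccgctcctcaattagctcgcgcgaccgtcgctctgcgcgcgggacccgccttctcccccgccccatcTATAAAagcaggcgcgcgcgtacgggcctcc
Gfi1, chr5:107725806-107726055, minus strand: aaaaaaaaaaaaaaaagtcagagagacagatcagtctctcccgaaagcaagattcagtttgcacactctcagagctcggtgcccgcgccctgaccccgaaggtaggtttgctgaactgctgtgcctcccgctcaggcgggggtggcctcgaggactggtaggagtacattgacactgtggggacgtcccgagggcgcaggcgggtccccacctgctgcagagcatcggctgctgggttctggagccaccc

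These windows differ in composition. The Cebpb window held 81.6% G and C with 41 CG dinucleotides, the Irf8 window 67.2% with 29, the Cebpa window 66.4% with 22 and the Gfi1 window 59.2% with 13. The median over all 32851 windows in the table was 52.4%. Of the 10 genes, 7 had a window there (Cebpa, Cebpb, Cebpg, Gfi1, Irf4, Irf5 and Irf8), with 9 windows in all because Gfi1 and Irf8 have 2 starts.

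Motifs were searched on both strands, and a match says only that the letters are present. The box TATAAA lay in the Cebpa, Irf8 and Irf4 windows, at 30 to 25, 31 to 26 and 26 to 21 bases before the start, and is held by 12.4% of all windows. The STAT motif TTCNNNGAA, bound by factors downstream of cytokine receptors, matched at 2 places in the Irf8 window, TTCTCGGAA at 171 to 163 and TTCAGAGAA at 153 to 145 bases before the start. It is held by 7.02% of all windows. The C/EBP motif TTNNGNAAT (10.2% of windows) was matched in the Irf5 window only, of the 9. No match in these 9 windows was found for the C/EBP palindrome TTGCGCAA (0.164% of windows), which the looser C/EBP motif can contain, the PU.1 motif GAGGAAGT (2.44%), the composite of ETS and IRF sites GGAANNGAA (6.99%), the interferon response motif GAAANNGAA (7.13%), the GFI1 motif TAAATCAC (0.514%) or the cyclic AMP response motif TGACGTCA (1.55%).

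Spi1 encodes PU.1, the factor on which the other myeloid factors build. Its signal was 181 ± 18.2 in bone marrow and 106 ± 10.9 in fetal liver. Scaled to each array these are log2 levels of 0.01 and -0.33, so the bone marrow array was the higher, by 1.27-fold. The difference of -0.35 ± 0.21 was under 2 technical errors, and 22.4% of all genes lay at or below it. Under spike-in scaling it was -0.68.

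Cebpa encodes C/EBP alpha, which is needed for progenitors to enter the granulocyte-monocyte path. Its signal was 498 ± 49.9 in bone marrow and 184 ± 18.6 in fetal liver, that is scaled log2 levels of 1.48 and 0.46. Bone marrow was higher by 2.02-fold, a difference of -1.02 ± 0.21, with 7.96% of all genes at or below it. The value lies at the 2-fold line, within its technical error, and normexp background correction put it at -0.95.

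Cebpb encodes C/EBP beta, which replaces C/EBP alpha when granulocytes are made on demand in infection. It gave the largest difference of the 10 genes. Its signal was 8569 ± 857 in bone marrow and 2394 ± 239 in fetal liver, and the scaled log2 levels were 5.58 and 4.16. Bone marrow was higher by 2.68-fold, at -1.42 ± 0.20, with 4.93% of all genes at or below it. Of 9 alternatives, averaging over probes and the settings on dim probes could not change it, since its 1 probe was well above background on both arrays. The others kept it at least 2-fold, between -1.76 and -1.42.

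Cebpd encodes C/EBP delta, which is induced in acute inflammation together with C/EBP beta. It did not follow Cebpb. Its signal was 2941 ± 294 in bone marrow and 2830 ± 283 in fetal liver, and the scaled difference was 0.36 ± 0.20. Within each array the ratio of Cebpd to Cebpb does not depend on a constant that scales the whole array. This ratio was 3.44-fold higher in fetal liver (1.78 ± 0.29, and 1.93 with normexp).

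Cebpe encodes C/EBP epsilon, the factor of secondary granule genes in maturing neutrophils. Its signal was 458 ± 45.9 in bone marrow and 423 ± 42.4 in fetal liver. This is a scaled difference of 0.30 ± 0.20 that became -0.03 under spike-in scaling. Its ratio to Cebpa was 2.50-fold higher in fetal liver (1.32 ± 0.29). Cebpg encodes C/EBP gamma, a short family member that dimerizes with the others and lacks an activation domain. Its signal was 210.3 ± 21.2 in bone marrow and 138 ± 13.97 in fetal liver. This is a difference of -0.19 ± 0.21, which was within the technical error. The 5 C/EBP genes thus spread from -1.42 to 0.36.

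Irf8 encodes IRF8, which directs monocyte and dendritic cell fates and restrains granulocytes. Its signal was 3704 ± 370 in bone marrow and 1598 ± 160 in fetal liver, with scaled log2 levels of 4.37 and 3.58. Bone marrow was higher by 1.74-fold (-0.80 ± 0.20), and 21.0% of all genes differed by more in either direction. Spike-in scaling brought it past 2-fold, at -1.13. The ratio of Cebpa to Irf8 differed between arrays by -0.22 ± 0.29, less than its technical error.

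Irf4 encodes IRF4, the close relative of IRF8 that acts in lymphoid, dendritic and alternatively activated cells. Its signals were the dimmest against background, 55.8 ± 6.33 in bone marrow and 28.4 ± 3.76 in fetal liver. That is 4.51 and 2.89 times the lowest signal counted as well above background on each array. The difference was -0.56 ± 0.25, and it was -0.04 in the normexp setting, which takes median spot signals and adds an offset of 50, close to these signals. Irf5 encodes IRF5, which drives inflammatory cytokine genes in macrophages. Its signal was 439 ± 43.9 in bone marrow and 296 ± 29.7 in fetal liver. This is a difference of -0.15 ± 0.20, within the technical error. The 3 IRF genes were all at lower scaled levels in fetal liver, from -0.80 to -0.15. Spike-in scaling lowers every difference alike, so it could not change these signs.

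Gfi1 was the 1 gene past 2-fold on the fetal liver side. Its signal was 1841 ± 184 in bone marrow and 3507 ± 351 in fetal liver, and these differ before any scaling, by 0.93. Scaled log2 levels were 3.36 and 4.71, a difference of 1.35 ± 0.20 or 2.54-fold, and 96.3% of all genes lay at or below it. Spike-in scaling left it at 1.01 and normexp at 1.13, both still past 2-fold. Its paralog Gfi1b, a repressor of erythroid and megakaryocyte progenitors, differed by 0.20 ± 0.20.

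**Figure D2:**
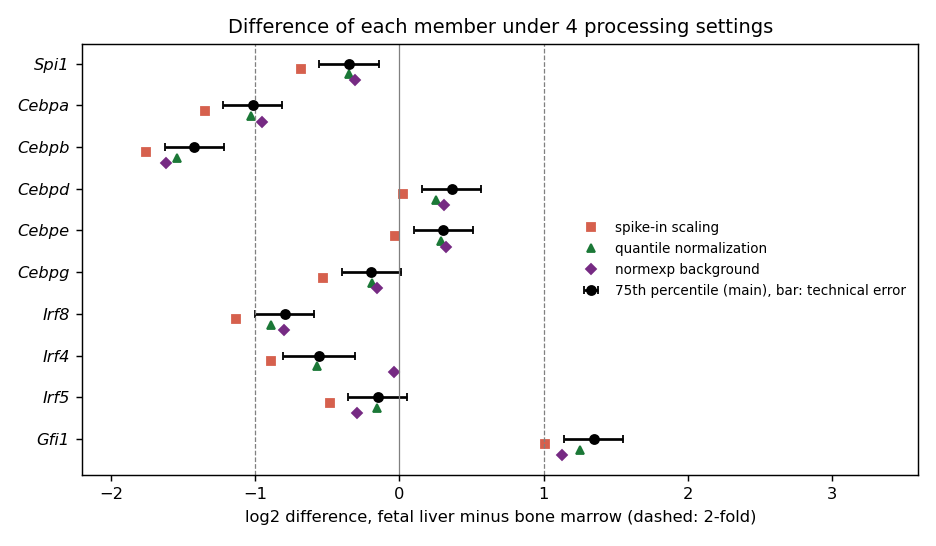
Log2 difference of fetal liver minus bone marrow for each gene under 4 processing settings, with the technical error on the main value and dashed lines at 2-fold. Gfi1 stays past 2-fold on the fetal liver side and Cebpb on the bone marrow side in all 4, while Cebpa, at -1.02 in the main setting, falls short with normexp and Irf8 passes only with spike-in scaling.

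Ratios of 2 of these genes within an array do not depend on a constant that scales the whole array. Gfi1 over Irf8, a granulocyte factor over a monocyte factor, was 4.42-fold higher in fetal liver (2.14 ± 0.29). Gfi1 over Cebpa was 5.14-fold higher (2.36 ± 0.29), Gfi1 over Spi1 3.24-fold and Gfi1 over Cebpb 6.82-fold. With normexp the first was 1.93 and the second 2.08. Cebpa over Spi1 went the other way, 1.59-fold higher in bone marrow (-0.67 ± 0.29). These ratios were picked with the single values known, and they restate them.

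**Figure D3:**
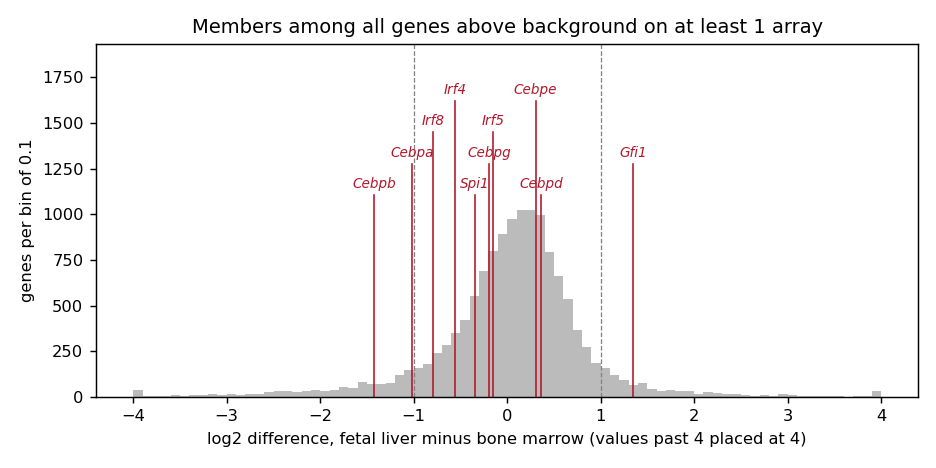
Histogram of the log2 difference of 13372 genes, with a line for each of the 10 factors and dashed lines at 2-fold. The factors spread over the distribution from Cebpb at -1.42 to Gfi1 at 1.35, with a median of -0.27 against 0.11 for all genes.

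Across the 10 genes 3 had positive and 7 negative differences, with a median of -0.27, against 0.11 for all genes. Under spike-in scaling the median was -0.61 against -0.23. Genes next to them in the genome were read from the same reference table. Of 20 neighbouring positions (19 different protein-coding genes), 15 were measured. On each side 1 was at least 2-fold higher, near the shares of all genes (6.72% in fetal liver, 8.12% in bone marrow). Evi5, beside Gfi1, a regulator of the cell cycle and membrane traffic, was at 1.38 ± 0.21, and Mybpc3, beside Spi1, a heart muscle gene, stood at least 2.66-fold above its fetal liver bound. Measured genes beside Cebpb, Tmem189 and Ptpn1, were at 0.11 and -0.23, and Cox4i1, beside Irf8, at 0.51.

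Partners, relatives, targets and markers of other cells were read in 16 lists holding 153 genes, of which 133 were measured. Of these, 11 reached 2-fold on the fetal liver side and 37 on the bone marrow side, while 6.72% and 8.12% of all genes did. Spike-in scaling made these 9 and 48, against 3.79% and 13.1% of all genes. The lists were chosen with earlier results of these data known, so these counts cannot be read as a test against all genes.

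**Figure D4:**
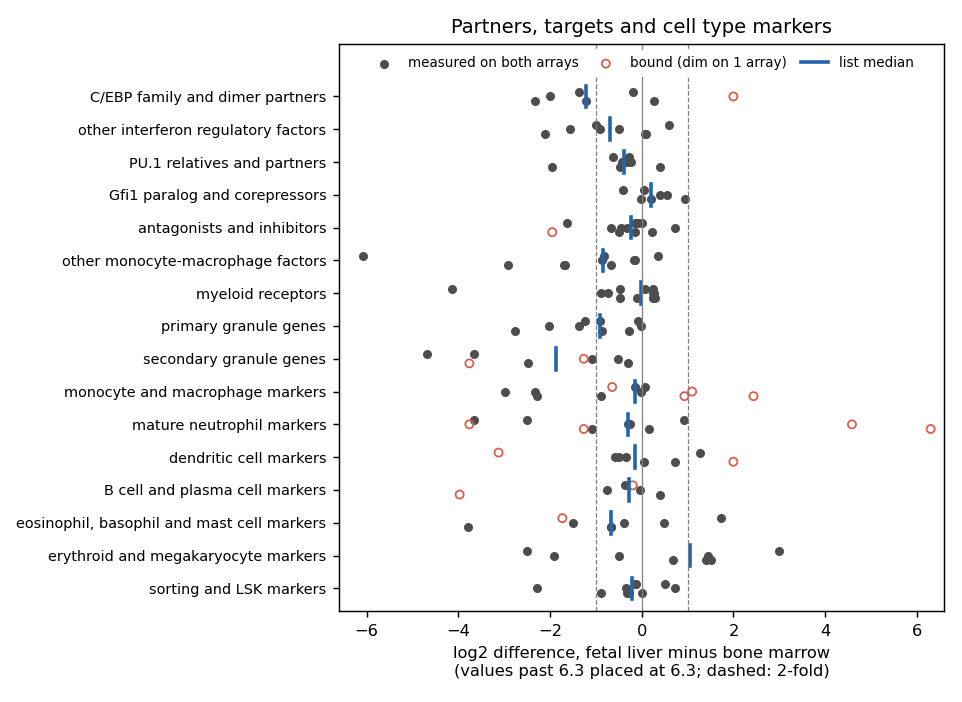
Log2 difference of each measured gene in the 16 lists, with open circles for bounds, where 1 array was not well above background, and a bar at each list's median. Medians run from -1.87 for secondary granule genes to 1.04 for erythroid and megakaryocyte markers, and most lists hold genes on both sides of 0.

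Relatives and dimer partners of C/EBP proteins stood mostly higher in bone marrow. Of 7 genes 4 reached 2-fold on that side and 1 on the fetal liver side, with a median of -1.21. Ddit3 (CHOP), a C/EBP relative that blocks its partners in stress, had signals of 1049 (bone marrow) and 196 (fetal liver) (4.01-fold). The stress factors Atf3 and Atf4, which can pair with C/EBP beta, were at -2.32 and -1.37, and Dbp, a circadian factor, at -1.21. Batf3, a dendritic cell factor, exceeded its bone marrow bound by at least 3.99-fold, with a fetal liver signal of 36.97, and was under 2-fold with normexp. Cebpz, named for its C/EBP link, was at 0.26 and turned negative with spike-in scaling.

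Among the other interferon regulatory factors and their cofactors, 3 of 8 were past 2-fold on the bone marrow side and 0 on the other, with a median of -0.70. Irf1 had signals of 13229 (bone marrow) and 2281 (fetal liver), a difference of -2.12 ± 0.20. Irf7, the inducer of type I interferon, was at -1.57 and Irf9, a partner of STAT factors, lay on the 2-fold line with signals of 2877 and 1075. All 3 are themselves induced by interferon. Irf8 at -0.80 was between them and the remaining IRF genes in size.

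PU.1 relatives and partners lay mostly within 2-fold. Of 8 measured genes 1 was past 2-fold on the bone marrow side and 0 on the other, and the median was -0.38. The gene was Spic, an ETS factor of red pulp macrophages, at -1.97 ± 0.25 from signals of 121 and 23.2, and with normexp 0 of the 8 passed. For Spib, of B and plasmacytoid dendritic cells, neither array was well above background. Runx1, which acts upstream of Spi1, was at -0.33.

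The Gfi1 paralog and corepressor list held no gene past 2-fold on either side, with a median of 0.20 that became -0.14 with spike-in scaling. Its top value was Rcor2, a CoREST protein, at 0.95 ± 0.20. Kdm1a, the histone demethylase that GFI1 recruits, was at 0.40. Antagonists and inhibitors of myeloid factors had 2 of 12 past 2-fold on the bone marrow side and 0 on the other. Both were Tribbles genes, whose proteins mark C/EBP alpha for degradation. Trib1 had signals of 2115 (bone marrow) and 512 (fetal liver) (-1.63 ± 0.20), and Trib2 exceeded its fetal liver bound by at least 3.87-fold. With normexp 1 of the 12 passed 2-fold. Gata1, the erythroid factor that opposes PU.1, was at -0.49.

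Other factors of monocytes and macrophages had 4 of 10 measured genes past 2-fold on the bone marrow side and 0 on the other, with a median of -0.85 (7 and 0 with spike-in scaling). Bhlhe40, a repressor of immune cells and the clock, was 68.1-fold higher in bone marrow (-6.09 ± 0.33), at signals of 1043 and 11.5. Its fetal liver signal was close to 9.82, the lowest counted as well above background there, so the size of this fold is uncertain. Nr4a1, a factor of patrolling monocytes, was at -2.92, Nab2, a corepressor of EGR proteins, at -1.70 (its other probe at -0.90), and Klf4, a monocyte factor downstream of PU.1 and IRF8, at -1.67. Of the EGR genes that GFI1 represses, Egr1 was at -0.88 and Egr2 at 0.34. Nr4a1, Egr1 and Klf4 are also immediate early genes, and what part this has in their values was not tested.

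Target genes gave an uneven picture. Of 12 myeloid receptor genes, 1 was past 2-fold on the bone marrow side and 0 on the other, with a median of -0.01. Csf3r and Csf1r, the receptors of G-CSF and M-CSF and textbook targets of C/EBP alpha and PU.1, were at 0.27 and 0.30, and both turned negative with spike-in scaling. Csf1r has 3 probes, of which the lowest gave -0.19. Spike-in scaling put 3 of the 12 past 2-fold. Cd14, a co-receptor for bacterial lipopolysaccharide, was the exception, with signals of 387 (bone marrow) and 16.5 (fetal liver) (-4.14 ± 0.30).

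Primary granule genes, the early products of granulocyte-monocyte progenitors, had 4 of 9 past 2-fold on the bone marrow side and 0 on the other, a median of -0.91, and negative values for all 9. Mpo, myeloperoxidase, was at -0.27 ± 0.20 with signals of 117530 and 72987. The proteases Ctsg, Elane and Prtn3 were at -2.76, -2.03 and -1.24, and Ms4a3 at -1.37. Secondary granule genes, targets of C/EBP epsilon, had 6 of 8 past 2-fold on that side, with a median of -1.87. With normexp 5 of the 8 passed and the median was -1.27, and without bounds 4 passed. Cebpe itself was at 0.30, and at -0.03 with spike-in scaling. Chil3 had signals of 674 and 19.8 (-4.67 ± 0.26). Ngp and Lcn2 were at -3.67 and -2.47, Retnlg exceeded its fetal liver bound by at least 13.5-fold and Mmp8 by at least 2.40-fold. The fetal liver signal of Ngp, 13.2, was close to 9.82, the lowest counted as well above background there, so its fold is uncertain. Ltf, lactoferrin, was at -0.31.

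Markers of other cells were read on the same arrays, and their part in the values of the 10 genes was not tested. Summed signals here and below are processed signals before scaling to each array's 75th percentile (179 in bone marrow, 134 in fetal liver). They also add up probes whose heights are not comparable. Mature neutrophil markers, which share 6 genes with the secondary granule list, had summed signals of 23946 (bone marrow) and 23286 (fetal liver) over 11 measured genes. Of the fetal liver sum, Stfa1 alone gave 8178, against 5.38 in bone marrow. Of the 11 genes 5 reached 2-fold on the bone marrow side and 2 on the other, and 3 and 0 without bounds. S100a8 was at 0.15, Il1b at -2.50, and the stefin genes Stfa1 and Stfa2, near-identical copies whose probes may share signal, exceeded their bone marrow bounds by at least 883-fold and 23.97-fold. Monocyte and macrophage markers had summed signals of 23767 and 3970 over 11 genes, most of it from Ly6c1 (18432 and 2852). The median difference was -0.15, but -0.88 without bounds and 0.03 with normexp. Of the 11 genes 3 were past 2-fold on the bone marrow side and 2 on the other, and with normexp 3 and 0. Ctss was at -2.97, F13a1 at -2.33 (its other probe at -1.07) and Ly6c1 at -2.28 (its other probe at -4.29), while on the fetal liver side Fcgr1 stood at least 5.41-fold and Cd5l at least 2.14-fold above the bone marrow bound. The macrophage marker Adgre1 was dim on both arrays, at signals of 27.2 and 21.3, and C1qa and Vsig4 were not well above background on either.

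Dendritic cell markers had 1 of 8 past 2-fold on the bone marrow side (Ly6d, at least 8.70-fold). In fetal liver 2 passed (Batf3, given above, and Zbtb46 at 1.26). The summed signals before scaling were 46848 and 33928, and the median scaled difference was -0.15. With normexp none of the 8 passed 2-fold on either side. Siglech was at 0.04, and Xcr1, Clec9a and Cd209a were not well above background. Of 12 B cell and plasma cell markers 6, with Ms4a1 and Pax5 among them, were not well above background on either array. The measured 6 had summed signals before scaling of 12790 and 8946, and a median scaled difference of -0.28. Jchain, the 1 gene past 2-fold (2 with spike-in scaling), exceeded its fetal liver bound by at least 15.7-fold. Eosinophil, basophil and mast cell markers had 3 of 8 past 2-fold in bone marrow and 1 in fetal liver, Il5ra at 1.73. Mcpt8 led the 3 at -3.79, with Prss34 at 2.84-fold and Fcer1a at least 3.32-fold. The fetal liver signals of Mcpt8 and Prss34 were 17.8 and 12.8, not far above 9.82, the lowest counted as well above background there. With normexp 1 and 0 of the 8 passed, and the list median went from -0.67 to -0.30. The summed signals before scaling were 3653 and 1881, and Epx was at -0.66.

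Erythroid and megakaryocyte markers had 4 of 8 past 2-fold on the fetal liver side and 2 on the other. Their summed signals before scaling were 24045 (bone marrow) and 107750 (fetal liver), most of it from Hbb-bt (2.99). Epor was at 1.44, and Hba-a1 was 2.83-fold higher in fetal liver. The megakaryocyte genes went both ways, with Pf4 and Itga2b at -1.92 and -2.50 and Gp9 at 1.40. Of the genes for the sorted proteins and LSK markers, 1 of 10 passed 2-fold (2 with spike-in scaling). Kit was at 0.01, and Ly6a, which encodes Sca-1, at -2.28 ± 0.20. In bulk RNA, more cells that express a gene and more RNA per cell cannot be told apart.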

How the data were processed

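Expression was measured on 2 single-colour Agilent arrays, 1 per group, from 20 ng of total RNA, per the labels. Per the file headers, the deposited intensity columns come from Feature Extraction 10.7.1.1 (Agilent), which subtracts background within each array, for a design on build mm9. The authors' deposited series table holds a linear ratio per probe. It equals that signal divided by 1 constant per array, 178.6 and 133.9, within 0.1% for 99.995% of single-spot probes. Its direction and centring need no assumption, and no source used here says why those constants were chosen.

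Control spots and outlier spots (137 and 122) were left out, and repeated spots were averaged. Values are log2 processed signals minus the log2 75th percentile of non-control probes. A probe not well above background on 1 array gives a bound against the lowest signal well above background there, written "at least". A gene takes its probe of highest mean signal. Symbols came from RefSeq accessions (GRCm38.p6), which named 27226 of 55664 probes. Its coordinates are printed only for start regions.

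The 10 genes, the 16 lists and the ratios were chosen with earlier results of these data known. All 10 genes are named, with, from each list, 1 defining gene and up to 5 past 2-fold. Gp9 is named beyond these 5, to show megakaryocyte genes of both directions. The defining genes of 2 lists are not reported here. Other list genes were named as known partners, antagonists or targets, as the top value of a list, or as markers not well above background. With 1 array per group there is no p-value. The normexp alternative (limma 3.58.1, offset 50) used median spot signals, since the files used hold no mean signal. Python 3.11.15 and numpy 2.4.6 were used, and the code was tested on simulated data.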

Additional observations from a re-analysis of the deposited data

How the results depend on the processing

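Of 10 alternatives, 9 rescale or refilter the values and 1 uses a 1.5-fold size. The count of factors at least 2-fold higher in fetal liver was 1 in every alternative. The count higher in bone marrow was 1 with normexp, where Cebpa was at -0.95, and 3 with spike-in scaling, where Irf8 joined, and at a size of 1.5-fold. The median of the 10 factors was -0.61 with spike-in scaling, which shifts all differences between measured signals alike. Each factor has 1 probe, well above background on both arrays. Averaging over probes and the settings on dim probes therefore could not change the counts or values of the factors. The authors' values and kept outlier spots shifted the median of all genes by only -0.0011 and 0.0016. Of the values for single factors, 78 moved by less than their technical error, and these fixed or nearly fixed values are among them. The 12 others were the 10 under spike-in scaling and, with normexp, Irf4 (-0.04) and Gfi1 (1.13). Cebpe was the 1 factor that changed sign, to -0.03 with spike-in scaling. For all genes, the main counts were 898 on the fetal liver side and 1086 on the other, which became 379 and 606 with normexp, and 505 and 1750 with spike-in scaling. Leaving out an array was not possible with 1 per group. No paired analysis was possible because each group has 1 array. Signal over background limits Irf4 most, and the number of arrays limits the precision of every value.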
